A study of Mus musculus with 105 samples.

Results

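The BTG and TOB genes form a small family of antiproliferative genes, and 5 of them, Btg1, Btg2, Btg3, Tob1 and Tob2, were taken by symbol from a deposited table of 22322 mouse genes. All 5 were listed, and all 5 passed the filter on low counts that left 10741 genes for testing. The study asked how mRNAs are lost from T cells before and after activation, and whether that loss needs translation. Total RNA was sequenced from primary CD4+ T cells of female C57BL/6J mice, 6 weeks of age, which were isolated by negative selection from spleen and lymph nodes, with no genetic alteration named. Cells were left resting or activated with beads that carry CD3 and CD28 antibodies, and were untreated or given transcription inhibitors, translation inhibitors or both.

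Triptolide, used at 25 µM, blocks the start of transcription, and DRB, used at 65 µM, blocks the release of paused RNA polymerase II. Cycloheximide, used at 100 µg/ml, stops ribosomes during elongation, and harringtonine, used at 2 µg/ml, stops them just after initiation. There were 35 groups of 3 replicates, numbered 2, 3 and 4 in every group. The 21 activated groups were untreated cells at 0, 1 and 3 h, triptolide or DRB at 0, 1 and 3 h, and cycloheximide or harringtonine at 1 and 3 h, alone or with either transcription inhibitor. The 14 resting groups were the same without DRB. Replicates are labelled biological, but nothing ties a number to a mouse, so p-values measure the spread between these samples, which may be technical.

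BTG and TOB proteins share a conserved domain through which they bind the catalytic deadenylase subunits of the CCR4-NOT complex, which shortens the poly(A) tails of mRNAs. TOB proteins also bind the cytoplasmic poly(A)-binding protein and so bring the deadenylase to poly(A) tails. In T cells, Btg1 and Btg2 are known for keeping resting cells quiescent, Tob1 is known as a brake on activation, and Btg2 is a classical immediate early gene and p53 target.

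Sequence letters known from mRNA turnover are shown first, because many of the comparisons follow the loss of these mRNAs after transcription was blocked. Btg1 (chr10:96617006-96622809, plus strand), Btg2 (chr1:134075170-134079120, minus strand), Tob1 (chr11:94211454-94215495, plus strand) and Tob2 (chr15:81848272-81858796, minus strand) each have 2 exons in the GENCODE annotation of GRCm38. Btg3 (chr16:78332637-78377192, minus strand) has 5. The single intron lies in the coding region of Btg1 and Btg2 and in the UTR of Tob1 and Tob2. The 3′ UTR is 4166 bases long in Btg1, 2457 in Tob2, 2199 in Btg2, 767 in Tob1 and 439 in Btg3, against a median of 882 bases over genes. The AU-rich letters TATTTAT occurred in the 3′ UTR of Btg2, Btg3 and Tob2, and in 26.7% of 20262 genes. Each of these matches is shown with its flanks, with the matched letters in capitals and its position counted from the first base of the 3′ UTR. Only the transcript's strand was searched.

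Btg2 at 103: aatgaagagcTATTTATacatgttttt
Btg3 at 241: tggacttgagTATTTATatattgtgca
Btg3 at 345: gtatataagtTATTTATacagaaggac
Tob2 at 852: atcacctgctTATTTATgtacgaggtt

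Btg1 and Tob1 held no TATTTAT. The shorter core ATTTA occurred in all 5, 11 times in Btg1, 5 in Btg2, 4 in Btg3, 3 in Tob1 and 4 in Tob2, but also in 64.1% of genes. A match describes the sequence and is not a shown binding site.

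The promoters of Btg2 and Tob2 are shown because their mRNAs rose together when translation was blocked. Each window runs from 250 bases before to 50 after the RefSeq start site on GRCm38.p6, is read 5′ to 3′ on the gene's minus strand, and is credited to RefSeq. The Btg2 window is chr1:134079106-134079405 and the Tob2 window chr15:81858277-81858576. Capitals mark TGACGTCA, the palindrome known as the cAMP response element.

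Btg2: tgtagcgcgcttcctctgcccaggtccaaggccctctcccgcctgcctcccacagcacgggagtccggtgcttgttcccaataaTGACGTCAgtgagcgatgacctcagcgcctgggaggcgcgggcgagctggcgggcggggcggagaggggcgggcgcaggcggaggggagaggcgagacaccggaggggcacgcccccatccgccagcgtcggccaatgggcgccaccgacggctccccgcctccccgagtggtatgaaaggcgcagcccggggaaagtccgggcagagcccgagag
Tob2: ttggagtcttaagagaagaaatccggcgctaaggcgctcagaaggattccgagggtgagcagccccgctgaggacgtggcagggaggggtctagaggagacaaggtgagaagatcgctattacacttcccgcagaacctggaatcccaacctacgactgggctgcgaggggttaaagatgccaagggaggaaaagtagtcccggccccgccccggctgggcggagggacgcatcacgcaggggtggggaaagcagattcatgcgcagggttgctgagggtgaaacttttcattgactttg

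TGACGTCA was found in Btg2 from -166 to -159 relative to the start, in none of the other 4 genes, and in 1.79% of 32851 promoters of the same length. Both strands were searched. The E-box letters CACGTG were in none of the 5 genes and in 7.15% of promoters, and the AP-1 letters TGANTCA were likewise in none and in 7.81%. Forkhead-type letters, GTAAACA, were found in Btg1 and in 3.65% of promoters. The letters TATAAA were found in Btg1 and Tob1 and in 13.6% of promoters. A single repeat of the p53 site was in none of the 5 genes and in 8.36% of promoters.

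Exon counts per library ran from 6300 to 6479221 with a median of 2135827, and from 75.8 to 97.3% of reads in a library fell outside gene counts. The library with 6300 counts, replicate 3 of resting cells after 1 h of triptolide, listed Btg1, Btg2, Btg3 and Tob2 at 0. The next shallowest, replicate 3 of untreated activated cells at 0 h, held 141028 counts. It enters every comparison with that group. The labels for activation were checked on untreated cells at 0 h, where Il2ra stood at 251 to 751 CPM (counts scaled to library size) in activated and 39.9 to 57.3 in resting cells, and Cd69 at 1452 to 2448 against 126 to 226. Summed CPM of 6 CD4 T cell markers was 1154 to 3029 in resting and 770 to 1975 in activated libraries, and that of CD8 markers 18.7 at most. The 5 B cell markers in the table, mostly Igkc, summed to between 51.6 and 1448 CPM in resting libraries (median 260) and between 6.13 and 495 in activated ones (median 93.1), with median Ms4a1 below 1. Myeloid and NK markers reached 21 and 6.13 CPM, with median Lyz2 and Cd14 at 0. The part of other cells in the results was not tested.

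Levels are given as CPM, on library sizes scaled by TMM, which sets the typical gene to no change. Losses after transcription inhibitors are given per 10000 counts of ERCC spike-in RNA, because RNA came from equal numbers of cells and spike-in scaling keeps a loss that all mRNAs share. Differences are log2 values ± SE from edgeR's quasi-likelihood test fitted over all libraries. A difference was called where its p, adjusted by Benjamini-Hochberg over all genes tested, lay under 0.05. In these bulk libraries fewer cells of a type and less RNA per cell cannot be told apart.

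The 5 genes differed widely in level. Per kilobase of exon, untreated resting cells at 0 h held 177.9 CPM of Btg1, 151 of Btg2, 24.6 of Tob1, 16.5 of Tob2 and 1.09 of Btg3. Per kilobase of a single transcript the resting mean of Tob2 was 26.4, above the 24.6 of Tob1, so their order in resting cells was not resolved. In activated cells at 0 h there were 32.2 CPM per kilobase of exon of Tob2 and 13.5 of Tob1, below 298 of Btg1 and 211 of Btg2, and the ranges of Tob1 and Tob2 did not overlap. Btg3 was close to the detection limit, with a median of 10 exon counts per library, so its changes are the least firm. It shares 27138 bases with Cxadr on the opposite strand, and whether the counting used strand is not given in the sources used here. Cxadr had 275 exon counts over all libraries together.

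Activation moved the members in different directions: Tob1 fell and Tob2 rose at every time point. Tob1, the brake on T cell activation, stood in resting cells at 49.8, 47.0 and 72.3 CPM and in activated cells at 20.6, 36.8 and 35.3 CPM, all at 0 h. At 3 h it stood at 63.9, 74.3 and 103 CPM in resting and at 9.95, 9.60 and 8.26 CPM in activated cells. The activated value of 36.8 CPM at 0 h came from the library of 141028 counts. The groups did not overlap at either time. Its difference was -1.01 ± 0.30 at 0 h (adjusted p = 0.00799), -1.98 ± 0.30 at 1 h (adjusted p = 9.32e-08) and -3.12 ± 0.31 at 3 h (adjusted p = 1.48e-14), the last being 8.69-fold lower.

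Tob2, its close relative, stood at 80.4, 107 and 142 CPM in resting and 267, 123 and 254 CPM in activated cells at 0 h. The replicate at 123 CPM, from the library of 141028 counts, lay within the resting range, so these groups overlapped. Tob2 was higher by 1.05 ± 0.29 at 0 h (adjusted p = 0.00346), 1.43 ± 0.29 at 1 h (adjusted p = 2.68e-05) and 1.39 ± 0.29 at 3 h (adjusted p = 3.29e-05). At 3 h the 3 activated libraries, at 169, 155 and 178 CPM, all stood above the 3 resting ones, at 79.4, 49.1 and 64.6 CPM.

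Btg1, the most abundant member in untreated cells, stood at 1085, 827 and 904 CPM in resting and 1976, 1140 and 1594 CPM in activated cells at 0 h, with no overlap. It was 1.69-fold higher at 0 h (0.75 ± 0.27, adjusted p = 0.0285) and higher at 1 h (0.82 ± 0.27, adjusted p = 0.011), while at 3 h the difference was 0.37 and not called (adjusted p = 0.24). Btg2 was not called at 0 h (0.47 ± 0.23, adjusted p = 0.125) or 1 h (0.38, adjusted p = 0.193). At 3 h Btg2 stood at 435, 347 and 468 CPM in resting and at 230, 281 and 197 CPM in activated cells. All 3 activated libraries lay below the resting ones, and Btg2 was 1.77-fold lower (-0.82 ± 0.23, adjusted p = 0.00189). Btg3 was called higher at 1 h (1.02 ± 0.40, adjusted p = 0.0363) and 3 h (1.48 ± 0.42, adjusted p = 0.0021), on 2.02, 1.80 and 3.03 CPM in resting and 8.52, 3.00 and 8.26 CPM in activated cells at 3 h. The resting library at 3.03 CPM lay above the activated one at 3.00.

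So 3 members were called at 0 h, 4 at 1 h and 4 at 3 h, against 26.8, 37.9 and 53.8% of all genes tested. On spike-in scaling 14.2% of all genes were called at 0 h and 50.7% at 3 h, and their median at 3 h moved to 0.6. There Btg1 was called higher (1.03), Btg2 was no longer called (-0.22, adjusted p = 0.595), Btg3 (2.20), Tob1 (-2.46) and Tob2 (1.99) kept direction and call, and at 0 h Tob2 alone was called. With coding-sequence counts the Btg1 differences at 0 and 1 h were not called either.

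**Figure D1:**
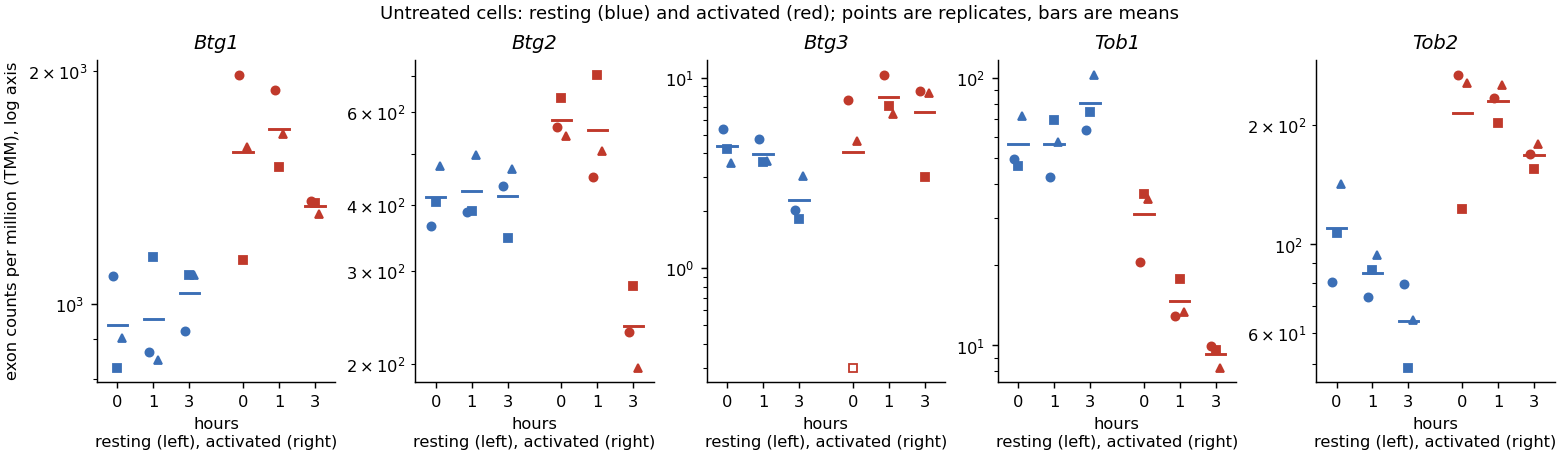
Level of each member in CPM (log axis) in untreated resting (blue) and activated (red) cells at 0, 1 and 3 h, with 1 point per library, circles, squares and triangles for replicates 2, 3 and 4, and bars for means, open points lying at or below 0.3. Tob1 lies at 8.26 to 9.95 CPM in activated cells at 3 h, while Tob2 lies there at 155 to 178 CPM, above the resting libraries.

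Within activated cells, 2 of 5 members fell from 0 to 3 h without any inhibitor, where 13.6% of all genes were called. Btg2, the immediate early gene, went from 561, 637 and 540 CPM to 230, 281 and 197 CPM (-1.29 ± 0.24, adjusted p = 3.73e-05), with no overlap. Tob1 fell by 1.59 on the log2 scale (SE 0.34, adjusted p = 0.000389). At 1 h none of the 5 was called, with 0.242% of all genes called. There Tob1, at 12.9, 17.7 and 13.3 CPM, lay below its 3 libraries at 0 h (-0.96, adjusted p = 0.21), and with the replicate block it was called (-1.01 ± 0.27, adjusted p = 0.0193). In resting cells no member was called between 0 and 1 h (0.0652% of all genes) or between 0 and 3 h (6.39%).

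The 0 h libraries of the inhibitors were compared with untreated cells at 0 h before they were used as the start of decay. In activated cells the introns of 4 members were lower already, and so was the spliced mRNA of Btg1. Intron counts of Btg1 per 10000 ERCC counts were 22.0, 37.1 and 46.8 in untreated cells, 1.28, 1.6 and 2.97 with triptolide and 4.43, 6.02 and 6.84 with DRB, with no overlap. With triptolide the introns of Btg1 (-4.16 ± 0.71), Btg2 (-2.76 ± 0.50), Btg3 (-2.31 ± 0.47) and Tob2 (-3.12 ± 0.67) were called, where 25.1% of all genes were. With DRB the same 4 were called, at -2.61, -1.56, -2.65 and -2.56, where 25.3% of all genes were. The introns of these 4 genes were thus already lower at the time used as the start of decay.

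Among exon counts at 0 h, 1 member was called in each case, against 0.438% of all genes with triptolide and 0.614% with DRB. Btg1 was lower by -1.17 ± 0.27 with triptolide (adjusted p = 0.0165) and by -1.20 ± 0.27 with DRB (adjusted p = 0.00926). Its levels with triptolide, at 907, 564 and 644 CPM, and with DRB, at 753, 620 and 689 CPM, did not overlap those of untreated cells. Btg2 stood at 340, 356 and 279 CPM with triptolide, and was not called (nor with DRB), although it was with the replicate block fitted within each state (-0.84 ± 0.18, adjusted p = 0.00128, and -0.82 ± 0.18, adjusted p = 0.00145, with DRB). With 1 block over both states these were -0.82 and -0.80 and not called (adjusted p = 0.0585 and 0.0544), and DESeq2 called the DRB difference (-0.90, adjusted p = 0.04). On spike-in scaling, and with coding-sequence counts, neither Btg1 call was made. In resting cells with triptolide at 0 h no member was called on exons or introns, and edgeR called 0% of all genes on either, with 94 of 10741 at an unadjusted p under 0.05 on exons and 0% called by DESeq2. These fits did not use the pairing of replicate numbers. Per 10000 ERCC counts, exons and introns of Btg2 and introns of Btg3 did not overlap those of untreated resting cells, while Btg2 in CPM did. Replicate 3 of the resting triptolide group held 13.5 intron counts of Btg1 per 10000 ERCC counts, the others 2.93 and 1.65, against 8.85 to 16.2 in untreated cells.

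After 3 h of triptolide the 5 mRNAs had fallen in both states, to between 8.71 and 22.4% of their 0 h level in activated cells and between 3.71 and 15.4% in resting cells. Most mRNAs fell, and 79.6% of all genes were called in activated and 77.4% in resting cells, so that being called is no mark of the family. In activated cells 77.7% of all genes were called lower and 1.85% higher. The median of all genes was -1.68 in activated cells, and every member was below it. In resting cells the median was -1.77, and all 5 were again below it.

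Btg2 went in activated cells from 101, 78.3 and 55.7 per 10000 ERCC counts to 5.54, 4.10 and 5.31 after 1 h of triptolide and to 5.23, 19 and 5.03 after 3 h. The fall was -3.97 ± 0.37 by 1 h, where the median of all genes was -0.79 and 45.5% were called, and -3.10 ± 0.36 by 3 h (adjusted p = 5.67e-12), to 11.7%. Most of the loss was there at 1 h, and replicate 3 stands above the other two at 3 h. In resting cells Btg2 went from 52.6, 65.9 and 52.5 to 3.22, 1.29 and 2.10 at 3 h (-4.75 ± 0.39, to 3.71%), after -3.28 at 1 h.

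Btg1 went in activated cells from 268, 124 and 129 per 10000 ERCC counts to 8.22, 32.6 and 6.77 at 3 h (-3.52 ± 0.44, adjusted p = 7.15e-11, to 8.71%), after -2.86 ± 0.43 at 1 h. Replicate 3 again stood apart. Over all genes that library held 14.7 exon counts per ERCC count, against 8.44 and 6.90 in replicates 2 and 4. Without it the 3 h change was -4.53 for Btg1 and -3.93 for Btg2, against -2.23 for Btg3, -3.0 for Tob1 and -3.69 for Tob2. In resting cells Btg1 went from 196, 195 and 88.1 to 15.5, 5.93 and 4.67 (-4.24 ± 0.46, to 5.29%). No 3 h library overlapped the 0 h range in either state.

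Tob2 in activated cells went from 80.0, 27.5 and 43.5 per 10000 ERCC counts to 3.72, 7.44 and 4.05 at 3 h (-3.38 ± 0.45, adjusted p = 4.21e-10, to 9.58%), and in resting cells it fell to 10.1% (-3.31 ± 0.46). Tob1 went from 6.42, 6.92 and 4.53 to 1.01, 2.19 and 0.445 (-2.61 ± 0.41, adjusted p = 3.37e-08, to 16.4%), and in resting cells to 8.45% (-3.57 ± 0.39). The groups of both genes stood apart. Btg3 had the smallest loss in activated cells, -2.16 ± 0.52 (adjusted p = 0.000175, to 22.4%), was not called at 1 h (-0.84 ± 0.48, adjusted p = 0.138), and fell by 2.70 on the log2 scale (SE 0.60) in resting cells.

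By 1 h of triptolide, then, 4 of 5 members were called in activated cells. In resting cells all 5 were, where the median of all genes was -0.76 and 37.4% were called. That group includes the library of 6300 counts. Without it and the next shallowest library the 1 h changes were -2.65 for Btg1, -3.26 for Btg2, -1.76 for Btg3, -2.58 for Tob1 and -1.29 for Tob2, and all 5 calls held. Against untreated resting cells at the same time Tob2 at 1 h was not called (-1.08, adjusted p = 0.0524).

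After 3 h of DRB in activated cells the 5 mRNAs had fallen to between 10.4 and 35% of their 0 h level. Btg2 went from 66.1, 80.3 and 61.5 per 10000 ERCC counts to 9.58, 6.07 and 5.82 at 3 h (-3.27 ± 0.36). Btg1 went from 147, 133 and 152 to 48.5, 34.2 and 35.8 (-1.87 ± 0.41, to 27.4%). Both were apart from their 0 h ranges. Tob2 fell to 14.3% (-2.80 ± 0.43), Tob1 to 33.4% (-1.58 ± 0.36) and Btg3 to 35% (-1.51 ± 0.51, adjusted p = 0.00623), so all 5 were called, as were 79.6% of all genes, whose median was -1.54.

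At 1 h of DRB, Btg2 (-2.20 ± 0.34), Tob1 (-1.24 ± 0.36, adjusted p = 0.00532) and Tob2 (-2.09 ± 0.42) were called, where 37.3% of all genes were and their median was -0.71. Btg1 was not (-0.87, adjusted p = 0.0759), but was with the replicate block (-0.88 ± 0.32, adjusted p = 0.019). Against untreated cells at the same time, Tob1 under DRB was not called at 1 h (-0.51) or 3 h (-0.53), and Tob1 also fell in those untreated cells, as given above.

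Direct tests of the differences between these losses gave no call on spike-in scaling. The 3 h loss of Btg1 was larger with triptolide than with DRB by -1.66 ± 0.57 (adjusted p = 0.264), where 0.633% of all genes were called. That difference was called on TMM scaling (-1.80), with the replicate block (-1.64 ± 0.47, adjusted p = 0.0408) and without the activated 3 h triptolide replicate 3 (-2.67, adjusted p = 0.00307). The loss of Btg2 under triptolide was smaller in activated than in resting cells by 1.65 ± 0.49 (adjusted p = 0.0568), where 1.95% of all genes were called. Without that same library it was 0.83 (adjusted p = 0.422). It was called on TMM scaling (1.42) and by DESeq2 (1.66, adjusted p = 0.0449).

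On TMM scaling, which asks for loss beyond the typical mRNA, Btg1 (-2.10), Btg2 (-1.65), Tob1 (-0.96) and Tob2 (-1.70) were called after 3 h of triptolide in activated cells, and Btg3 (-0.43) was not. Of all genes 47.6% were called there, 26.2% as lower. The same 4 were called in resting cells, with Btg2 at -3.07 and Btg1 at -2.63. After 3 h of DRB, Btg2 (-1.72) and Tob2 (-1.26) were called, while Btg1 (-0.30), Btg3 (-0.04) and Tob1 (-0.01) were not. Of all genes 39.8% were called there, 21.9% as lower, so the number of members called is near the background.

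**Figure D2:**
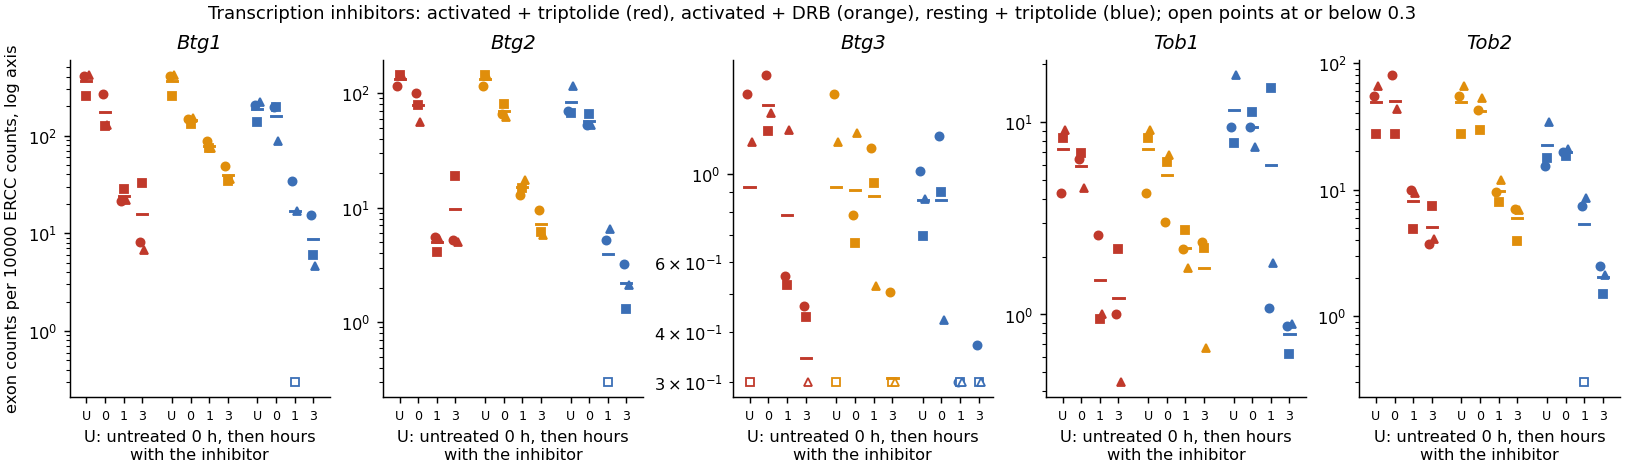
Exon counts of each member per 10000 ERCC counts (log axis) in untreated cells at 0 h (U) and at 0, 1 and 3 h with triptolide in activated cells (red), DRB in activated cells (orange) and triptolide in resting cells (blue), with 1 point per library, circles, squares and triangles for replicates 2, 3 and 4, and bars for means, open points lying at or below 0.3. Btg2 in activated cells is at 4.10 to 5.54 by 1 h of triptolide, and replicate 3 at 3 h stands above the others for Btg1 (32.6) and Btg2 (19). That library also held the most exon counts per ERCC count of its group over all genes.

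When translation alone was blocked in activated cells, Btg2 and Tob2 rose. Btg2 went from 230, 281 and 197 CPM untreated at 3 h to 2312, 2413 and 1816 CPM with cycloheximide, 9.24-fold higher (3.21 ± 0.25, adjusted p = 4.85e-18). With harringtonine it reached 2175, 2291 and 1780 CPM, 8.83-fold higher (3.14 ± 0.25, adjusted p = 1.31e-17). Every treated library lay far above every untreated one.

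Tob2 went from 169, 155 and 178 CPM to 1042, 678 and 1160 CPM with cycloheximide, 5.74-fold higher (2.52 ± 0.29, adjusted p = 4.99e-11). With harringtonine it reached 962, 776 and 1004 CPM, 5.46-fold higher (2.45 ± 0.29, adjusted p = 1.04e-10). Its groups did not overlap either. Btg1 (-0.02), Btg3 (0.69, adjusted p = 0.134) and Tob1 (0.54, adjusted p = 0.235) were not called with cycloheximide. Thus 2 of 5 members were called with each drug, against 30% of all genes with cycloheximide and 31% with harringtonine, so the number of calls is near the background. On spike-in scaling Btg3 (1.15, adjusted p = 0.0307) and Tob1 (1.03, adjusted p = 0.0326) were called with cycloheximide too, where 28% of all genes were.

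At 1 h these calls were rarer over all genes, 2.63% with cycloheximide and 2.09% with harringtonine. Btg2 went from 452, 705 and 505 CPM to 1631, 1889 and 1571 CPM with cycloheximide (1.62 ± 0.23, adjusted p = 2.4e-06) and to 1536, 1543 and 1335 CPM with harringtonine (1.41 ± 0.23, adjusted p = 5.73e-05). Tob2 went from 234, 201 and 251 CPM to 446, 303 and 554 CPM with cycloheximide (0.92 ± 0.28, adjusted p = 0.0494). With harringtonine it was not called (0.72, adjusted p = 0.15), except with the replicate block (0.70 ± 0.15, adjusted p = 0.000678). None of the 4 sets of libraries overlapped its untreated set.

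Given alone, the 2 translation inhibitors gave no called difference on any member. In activated cells at 3 h no member was called between cycloheximide and harringtonine. The largest difference was that of Tob1, 0.54 ± 0.32, and that of Btg2 was 0.07 ± 0.23. Over all genes edgeR called 0%, with 228 of 10741 at an unadjusted p under 0.05 and 0% called by DESeq2. Neither fit used the pairing of replicate numbers, which correlated here at 0.65 to 0.73, so small differences may have been missed. In resting cells no member was called either, and 0.00931% of all genes were.

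In resting cells Btg2, Btg3 and Tob2 rose at 3 h with either drug. Btg2 went from 435, 347 and 468 CPM to 702, 637 and 746 CPM with cycloheximide (0.74 ± 0.23, adjusted p = 0.011) and 700, 645 and 777 CPM with harringtonine (0.76 ± 0.23, adjusted p = 0.0109). Tob2 went from 79.4, 49.1 and 64.6 CPM to 141, 94.5 and 124 CPM with cycloheximide (0.91 ± 0.29, adjusted p = 0.0124) and rose 1.74-fold with harringtonine (0.80 ± 0.29, adjusted p = 0.0363). Btg3 went from 2.02, 1.80 and 3.03 CPM to 5.16, 6.58 and 7.55 CPM with cycloheximide, 2.67-fold higher (1.42 ± 0.40, adjusted p = 0.00555), and was 2.78-fold higher with harringtonine (1.47 ± 0.41, adjusted p = 0.00531).

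None of these 6 treated groups overlapped the untreated one. The calls were 3 of 5 with each drug, against 26.3 and 20.5% of all genes. At 1 h no member was called with either drug, where 1.22 and 1.57% of all genes were. With the replicate block Btg2 was called at 1 h of harringtonine (0.53 ± 0.17, adjusted p = 0.0292). Tob1 was lower at 3 h of cycloheximide with the block (-0.45 ± 0.18, adjusted p = 0.0332), but it lay at 0.59 on spike-in scaling, on which the median of all genes was 1.02.

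**Figure D3:**
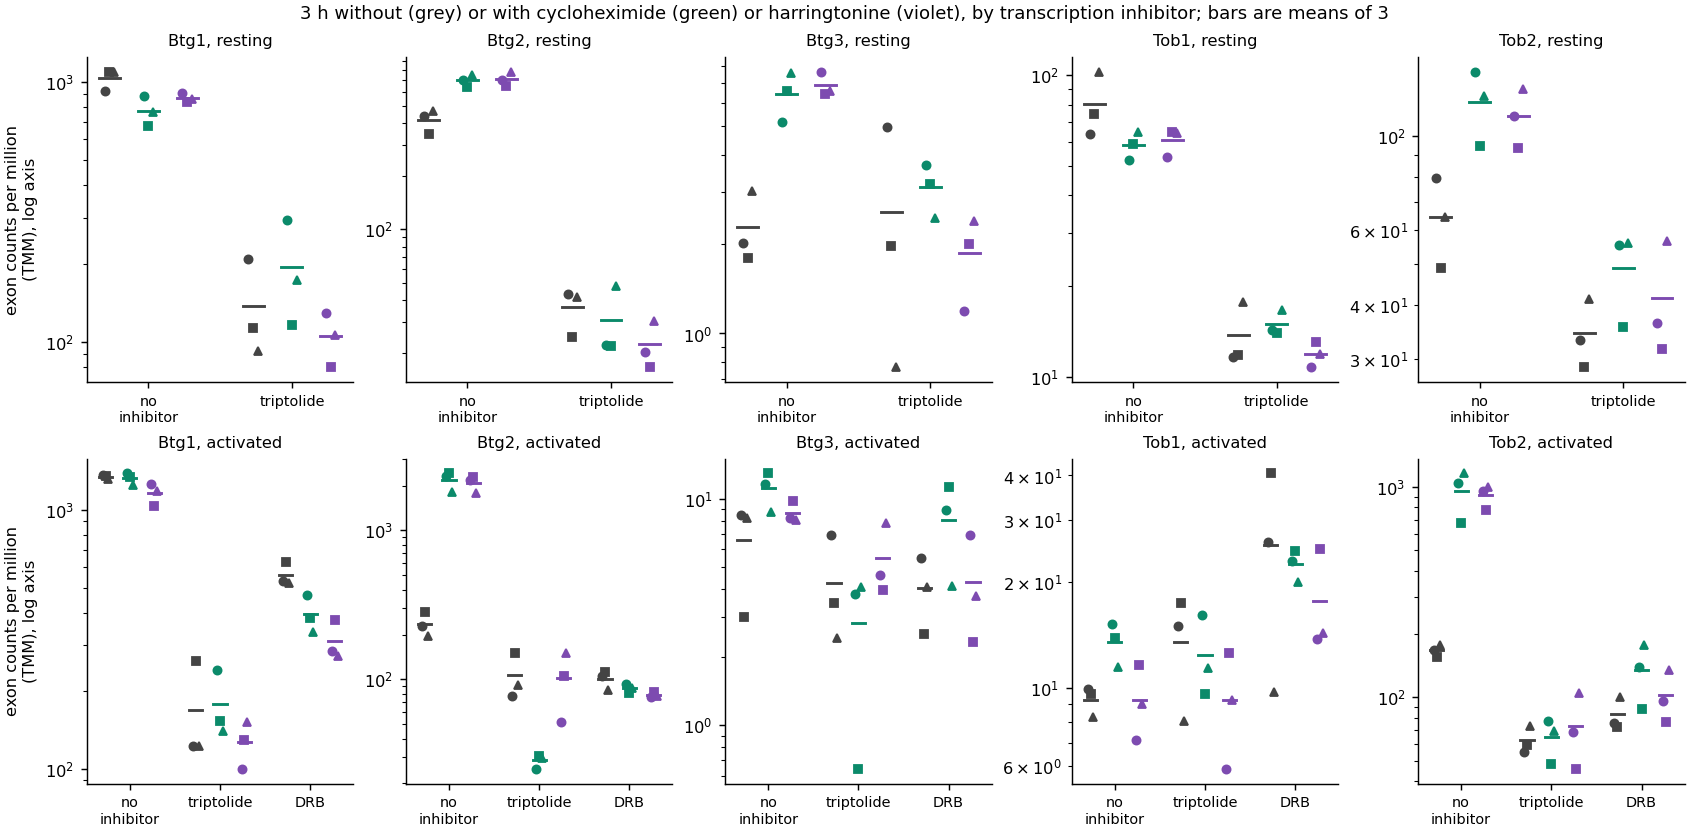
Level of each member in CPM (log axis) at 3 h without a translation inhibitor (grey), with cycloheximide (green) and with harringtonine (violet), by transcription inhibitor and cell state, with 1 point per library, circles, squares and triangles for replicates 2, 3 and 4, and bars for means. Btg2 in activated cells rises from 197 to 281 CPM untreated to 1816 to 2413 CPM with cycloheximide, and with triptolide as well it lies at 25.0 to 30.8 CPM.

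With transcription blocked as well, the effect of the translation inhibitors bears on whether they slow mRNA loss. At 1 h of triptolide in activated cells 3 members were higher with cycloheximide added. Btg2 stood at 36.0, 38.4 and 38.2 CPM with triptolide, at 88.6, 108 and 84.3 CPM with cycloheximide added (1.31 ± 0.26, adjusted p = 0.000104) and at 83.3, 124 and 85.6 CPM with harringtonine added (1.37 ± 0.26, adjusted p = 3.91e-05). Btg1 stood at 138, 269 and 157 CPM and rose to 389, 352 and 332 CPM with cycloheximide (0.94 ± 0.27, adjusted p = 0.0142) and to 332, 333 and 297 CPM with harringtonine (0.78 ± 0.27, adjusted p = 0.0496). No treated library lay within the triptolide range.

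Tob2 stood at 64.8, 45.3 and 68.1 CPM and was higher with cycloheximide, at 120, 99.7 and 124 CPM (0.93 ± 0.29, adjusted p = 0.0242). With harringtonine its difference was 0.82 (adjusted p = 0.0524), called with the replicate block (0.83 ± 0.18, adjusted p = 0.000122). So 3 of 5 members were called with cycloheximide and 2 of 5 with harringtonine, where 11.7 and 11.4% of all genes were.

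At 3 h Btg2 was lower instead. It stood at 77.7, 151 and 91.2 CPM with triptolide and at 25.0, 30.8 and 29.8 CPM with cycloheximide added (-1.86 ± 0.26, adjusted p = 3.05e-08), without overlap. With harringtonine added it stood at 51.8, 106 and 151 CPM and did not differ beyond its spread (-0.02 ± 0.25, adjusted p = 0.976). The 2 drugs differed under triptolide for Btg2 by -1.85 ± 0.26 (adjusted p = 1.86e-07), where 4.88% of all genes were called. Without the activated 3 h triptolide replicate 3, which held 151 CPM, the effect of cycloheximide on Btg2 was -1.52 (adjusted p = 1.83e-05). These values are on TMM scaling and so relative to the typical mRNA. On spike-in scaling the median of all genes was 0.62 with cycloheximide added, so -1.86 and -1.52 do not give a loss per spike-in RNA. Per 10000 ERCC counts, Btg2 with and without cycloheximide did not overlap either.

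Btg2 was the only member called with cycloheximide under triptolide at 3 h, against 27.3% of all genes, and with harringtonine none was, against 24.7%. Under DRB the calls on TMM scaling were few. Tob2 rose at 1 h with cycloheximide, from 79.8, 60.0 and 87.3 CPM to 208, 126 and 178 CPM (1.17 ± 0.29, adjusted p = 0.00583), where 6.48% of all genes were called. No member was called with harringtonine at 1 h (6.88% of all genes) or with cycloheximide at 3 h (17.6%), but with the replicate block Tob2 was called in both (0.80 ± 0.17, adjusted p = 0.000268, and 0.73 ± 0.18, adjusted p = 0.00105). Btg1 was lower at 3 h of DRB with harringtonine, at 285, 376 and 272 CPM against 529, 628 and 521 CPM (-0.85 ± 0.27, adjusted p = 0.0186), where 18.7% of all genes were called. On spike-in scaling that value was -0.17 and not called. Cycloheximide and harringtonine under DRB gave no different member, against 3.63% of all genes.

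In resting cells no member was called when either drug was added to triptolide. The backgrounds were 4.97% of all genes at 1 h and 35.2% at 3 h with cycloheximide, and 5.02 and 24% with harringtonine. Btg2 at 3 h stood at 43.2, 24.7 and 41.5 CPM with triptolide, 22.1, 22.0 and 48.0 CPM with cycloheximide and 20.3, 16.6 and 30.4 CPM with harringtonine. These 3 groups overlapped, although with the replicate block the effect of harringtonine was called (-0.68 ± 0.28, adjusted p = 0.0431). For Btg1 the effect at 1 h was 0.83 with cycloheximide (adjusted p = 0.0989) and 0.75 with harringtonine (adjusted p = 0.152).

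On spike-in scaling cycloheximide gave calls in resting cells that TMM did not. At 1 h these were Btg1 (1.62), Btg2 (1.25) and Tob1 (1.43), and at 3 h Btg1 (1.47), Tob1 (1.03) and Tob2 (1.47). The median of all genes was 0.74 and 0.86 there. Between the drugs under triptolide at 3 h no member was called (2.17% of all genes). Btg1 was the nearest (0.89, adjusted p = 0.0781) and was called with the block (0.86 ± 0.25, adjusted p = 0.0245).

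The effect of cycloheximide on Btg2 under triptolide at 3 h differed between states, at -1.86 in activated and -0.26 in resting cells, by -1.60 ± 0.38 (adjusted p = 0.0365), where 0.289% of all genes were called. It was not called without the activated 3 h triptolide replicate 3 (-1.31, adjusted p = 0.149). No member differed between states in the effect of harringtonine, where 0.475% of all genes did.

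The effect of a translation inhibitor without and with triptolide was also compared directly. In activated cells the effect of cycloheximide at 3 h was larger without triptolide by 5.07 ± 0.36 for Btg2 (adjusted p = 8.75e-20) and by 2.46 ± 0.41 for Tob2 (adjusted p = 2.73e-06), where 23.9% of all genes were called. For harringtonine the differences were 3.16 ± 0.34 for Btg2 (adjusted p = 1.63e-11) and 2.23 ± 0.42 for Tob2 (adjusted p = 2.25e-05), where 21.3% were. The other 3 members were not called.

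In resting cells Btg2 was called for cycloheximide (1.00 ± 0.36, adjusted p = 0.0496) and for harringtonine (1.46 ± 0.37, adjusted p = 0.00387), against 15.1 and 12.8% of all genes. The first of these calls sat on the threshold, and without the 2 shallowest libraries it was lost (0.99, adjusted p = 0.055). Btg1 was lower there by -0.94 (adjusted p = 0.0885), and with the block the difference was called (-0.97 ± 0.35, adjusted p = 0.0275).

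**Figure D4:**
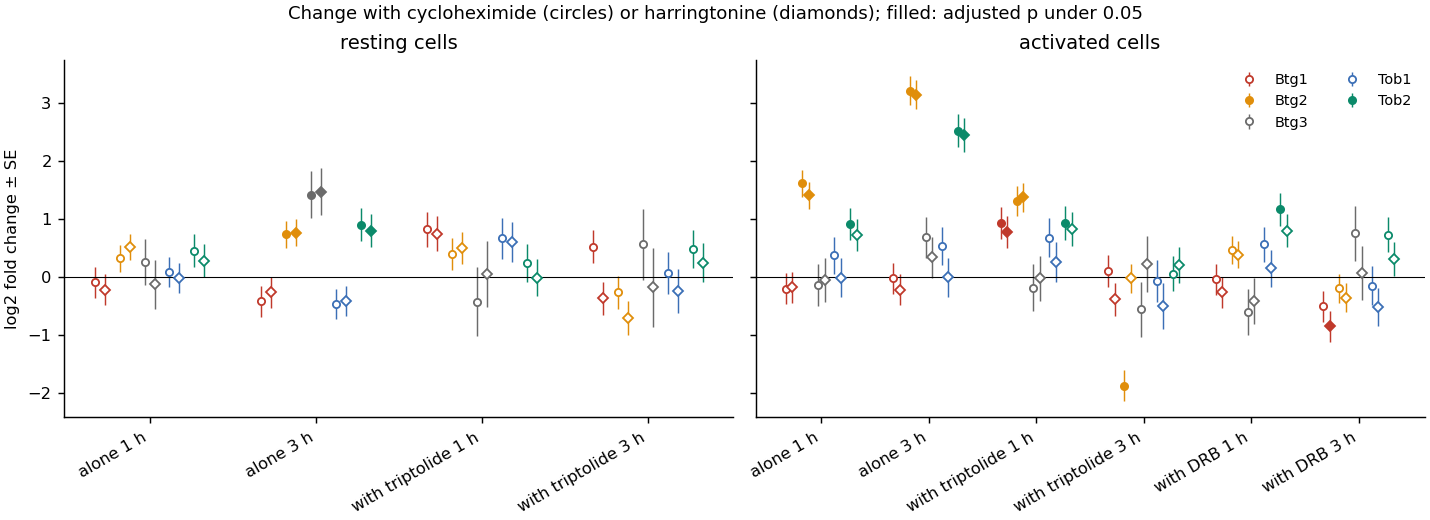
Log2 difference of each member (by colour) with cycloheximide (circles) or harringtonine (diamonds) at 1 and 3 h in resting and activated cells, alone, with triptolide and with DRB, with bars of 1 SE and filled points for an adjusted p under 0.05. Btg2 in activated cells lies at 3.21 with cycloheximide alone at 3 h and at -1.86 with triptolide as well.

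Intron counts, which follow unspliced RNA, were read beside the exons. Btg2 introns in activated cells fell from 6.91, 11 and 15.0 per 10000 ERCC counts at 0 h to 2.66, 2.15 and 3.92 at 3 h (-1.90 ± 0.48, adjusted p = 0.0476), where 0.298% of all genes were called. With translation blocked at 3 h they stood at 9.91, 7.44 and 7.52 with harringtonine (1.51 ± 0.46, adjusted p = 0.0394; 4.44% of all genes) and at 6.65, 6.85 and 6.97 with cycloheximide (1.23 ± 0.46, adjusted p = 0.121). The treated libraries lay above the untreated ones with both drugs, and with the replicate block the cycloheximide difference was called too (1.24 ± 0.40, adjusted p = 0.0204). These intron differences of Btg2, on spike-in scaling, were smaller than the exon differences of 3.14 and 3.21 on TMM scaling. The scales differ, as on spike-in scaling the exon medians of all genes were 0.35 with harringtonine and 0.47 with cycloheximide. The comparison of introns with exons was not tested.

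Between states at 3 h the introns of Btg2 were lower in activated cells (-1.27 ± 0.46, adjusted p = 0.0316) and those of Tob2 higher (2.01 ± 0.62, adjusted p = 0.0113), where 25.7% of all genes were called. After 1 h of triptolide in activated cells the introns of Btg2 (-1.34, adjusted p = 0.0258), Btg3 (-1.73, adjusted p = 0.00133) and Tob2 (-2.21, adjusted p = 0.0231) had fallen further from 0 h, where 62.4% of all genes were called. After 1 h of DRB none of the 5 was called, where 42.6% were, and with the block Tob1 was (-1.78, adjusted p = 0.0351). Btg1 introns stood at 13.3, 7.17 and 14.7 at that time, above the 4.43, 6.02 and 6.84 of 0 h (1.03 ± 0.62). Tob1 introns had a median of 2 counts per library and give no firm value.

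**Figure D5:**
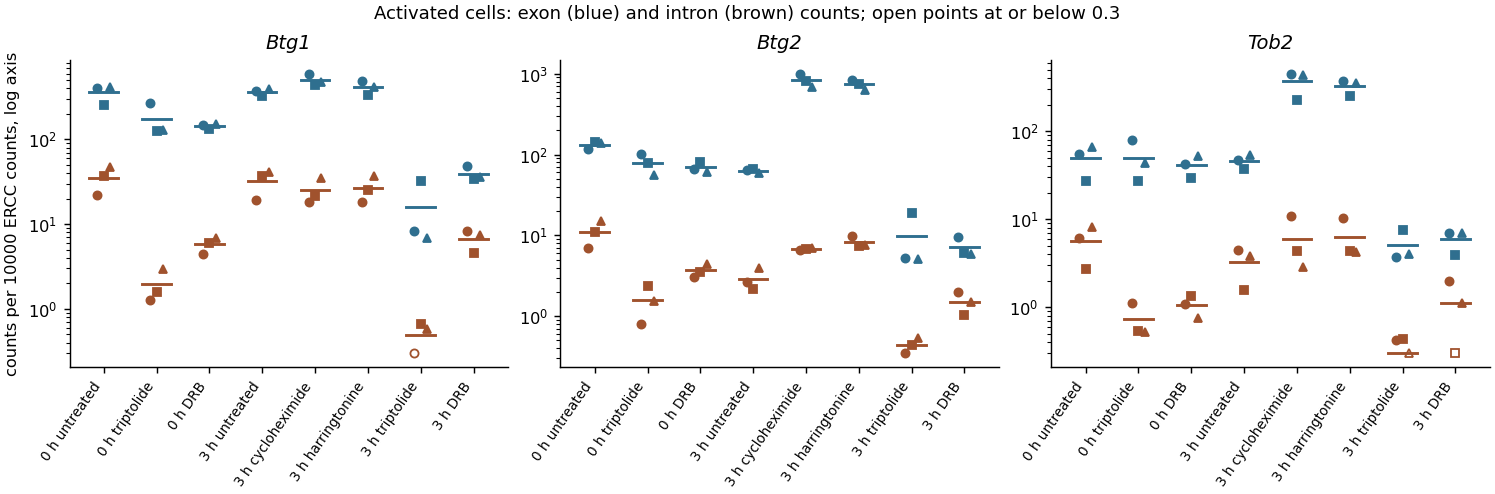
Exon (blue) and intron (brown) counts of Btg1, Btg2 and Tob2 per 10000 ERCC counts (log axis) in activated cells by time and drug, with 1 point per library, circles, squares and triangles for replicates 2, 3 and 4, and bars for means, open points lying at or below 0.3. Btg1 introns at 0 h lie at 22.0 to 46.8 untreated and at 1.28 to 2.97 with triptolide.

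Over the 35 groups, Btg2 had the widest range of the 5, from a mean of 2180 ± 319 CPM (SD, n = 3) in activated cells after 3 h of cycloheximide to 22.4 ± 7.18 CPM in resting cells after 3 h of triptolide with harringtonine, 97.1-fold. Tob2 spanned 27.9-fold, from 960 ± 251 CPM in the same highest group to 34.5 ± 6.52 CPM in resting cells after 3 h of triptolide. Btg1 spanned 16-fold, from 1683 ± 194 CPM in untreated activated cells at 1 h to the 129, 79.9 and 106 CPM of the group that was also lowest for Btg2.

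Tob1 spanned 8.69-fold, and its highest group was untreated resting cells at 3 h, at 80.3 ± 20.1 CPM. Btg3 spanned 8.97-fold, and its lowest group holds the library of 6300 counts. When groups were put in order of mean, most neighbours overlapped, 29 of 34 for Btg2, 32 for Tob2, 33 for Btg1 and all 34 for Btg3 and Tob1. The order between neighbours is therefore mostly not resolved.

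Across the group means, Btg1 and Btg2 had a Pearson r of 0.89, Btg2 and Tob2 of 0.82, Btg1 and Tob2 of 0.73, and Btg3 and Tob2 of 0.72. Tob1 followed the others least, with r of -0.14 against Tob2 and -0.22 against Btg3. These are descriptions over 35 groups that share libraries' depth and drugs. By the same measure over 7815 genes, those most like Btg2 were Tgif1 (0.97), Ppp1r10 (0.96) and Socs4 (0.96), and those most like Btg1 were Taf7, Mcl1 and Rab1a, each at 0.96. Most like Tob1 were Mex3b (0.91), Ccng2 (0.91) and Sesn1 (0.90). Most like Tob2 were Fam110a and Cd83 (0.96) and a gene listed without a symbol. Most like Btg3 were Zfp865 (0.87), Srp54c (0.85) and Rfx5 (0.84). By Spearman correlation the 3 genes named for Btg1 stayed the top 3, and those for Btg2 ranked 2 to 4. In the order named, the ranks were 11, 1 and 8 for Tob1, 59, 1 and 25 for Tob2, and 10, 2 and 21 for Btg3.

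The proteins that BTG and TOB act with were read as a list of 15 genes, of which 14 were tested. The list holds genes of deadenylation and poly(A) binding, and also Prmt1. In untreated activated cells at 3 h, 4 of them stood higher than in resting cells and 3 lower. That was 50% of those tested, where 53.8% of all genes were called. Their median was 0.35, and that of all genes -0.04. On spike-in scaling 10 were higher and 1 lower, where 40.6% of all genes were called higher and 10.1% lower. Pan3, a subunit of the PAN2-PAN3 deadenylase, was at -0.97 and Cnot6, a catalytic CCR4-NOT subunit, at -1.53, both called on TMM scaling, while Cnot1, the scaffold, was at 0.08 and not called.

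After 3 h of triptolide 12 of the 14 fell in activated cells, with a median of -1.82, and 12 fell in resting cells, with a median of -1.68. Over all genes 79.6 and 77.4% were called, with medians of -1.68 and -1.77. On TMM scaling 5 of the list were higher and 5 lower in activated cells, and 4 and 4 in resting cells. In activated cells 21.5% of all genes were higher and 26.2% lower on that scaling. Cnot8, another catalytic subunit, was at -3.59 in activated cells, and Pabpc1, the cytoplasmic poly(A)-binding protein, was at 0.06 and not called. Cycloheximide alone at 3 h in activated cells gave 2 higher and 2 lower, 28.6% of the list, where 30% of all genes were called. Pan2 was higher by 0.49, and Pabpc4, another poly(A)-binding protein, was lower by -1.07. On spike-in scaling 3 were higher and none lower, and Pabpc4 was at -0.60 and not called (adjusted p = 0.226). Of all genes 25.2% were higher and 2.8% lower on that scaling.

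Cycloheximide added to triptolide at 3 h gave 3 higher and 4 lower of the 14 in activated cells and the same numbers in resting cells, where 27.3 and 35.2% of all genes were called. Among them Cnot10, a CCR4-NOT subunit, was higher by 1.44 and Pabpc1 lower by -1.42 in activated cells. On spike-in scaling 6 were higher and none lower there, with Pabpc1 at -0.93 and not called (adjusted p = 0.0591), and in resting cells 8 were higher and none lower. Of all genes in activated cells 34.6% were higher and 0.354% lower on that scaling. In resting cells the median of all genes was raised on it as well, as given above.

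Of 14 G1 cell cycle genes 13 were tested, and all were called between states at 3 h, 6 higher and 7 lower, where 53.8% of all genes were. On spike-in scaling 6 were higher and 3 lower, where 40.6% of all genes were called higher and 10.1% lower. Myc was higher by 5.06 and Ccnd2, a D-type cyclin, by 3.68, while Cdkn1b, a cyclin-dependent kinase inhibitor, was lower by -3.47. At 0 h 4 were higher and 3 lower, against 26.8% of all genes, and on spike-in scaling 3 and 2, against 14.2%. After 3 h of triptolide 9 of 13 fell in each state, a share of 69.2% below the 79.6 and 77.4% of all genes. On TMM scaling 3 were higher and 3 lower in activated cells, and 3 and 4 in resting cells. In activated cells 21.5% of all genes were higher and 26.2% lower on that scaling. Cycloheximide alone at 3 h in activated cells gave 2 higher and 2 lower, 30.8% of the list against 30% of all genes. On spike-in scaling it gave 3 and 1, where 28% of all genes were called. Among them were Rb1 higher by 1.08 and Cdk4 lower by -1.87.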

How the data were processed

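The authors' deposited table holds whole-number HTSeq read counts per gene over exons, coding sequence and introns, and for ERCC spike-ins. The submitters' processing notes name TopHat2 2.0.13, Bowtie 1.1.1.0, HTSeq and the build mm10. The annotation and the strand setting are not given in the sources used here. Of 735 columns used, all map to samples, and 105 libraries in 35 groups entered 1 fit of group means.

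Low genes were removed with filterByExpr, and edgeR 4.0.16 (R 4.3.3) gave robust quasi-likelihood F tests with Benjamini-Hochberg adjustment over all genes, called at 0.05. TMM scaling was used for levels, activation, time and translation inhibitors, and library sizes set to summed ERCC counts for loss after transcription inhibitors and for introns. DESeq2 1.42.0 was an alternative. The tests were checked on simulated counts. In the simulated cycloheximide comparison of 10239 genes, 95 of 100 genes changed 4-fold and 70 of 100 changed 2-fold were recovered.

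Depth ranged from 6300 to 6479221 exon counts. No 2 replicates differed by less than sampling noise: in 105 comparisons of replicates, chi-square over its degrees of freedom was at least 1.145. Same-numbered libraries deviated together within a state, each of 105 correlating best with its own number, and every pair's correlation was over 0.1 in 32 of 38 comparisons, so a blocked value stands beside a reported result whose call it changed. The exceptions to the pairing are the triptolide losses at 3 h in activated and at 1 h in resting cells, harringtonine added to triptolide at 3 h in activated cells, both drugs added at 1 h in resting cells, and untreated resting cells at 3 h. There, numbers did not pair the samples, and the blocked values are only hints. Blocked values come from a block fitted within each state unless another is named.

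Genes are named by these rules: every member, the 2 lowest p and the 2 highest mean levels of each list, and the 3 with the most similar pattern. Members and lists were chosen with earlier results of these data known. Gene structure comes from GENCODE M21, and promoters from RefSeq. Some markers and sequence matches are not reported here.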

Additional observations from a re-analysis of the deposited data

Results flagged for a closer look

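The effect of cycloheximide on Btg2 under triptolide at 3 h differed between the states by -1.60 ± 0.38 (adjusted p = 0.0365 by edgeR's quasi-likelihood test), from the test of the difference itself. Btg2 lay at 25.0 to 30.8 CPM with both drugs against 77.7 to 151 CPM with triptolide alone in activated cells. In resting cells it lay at 22.0 to 48.0 CPM against 24.7 to 43.2. The adjusted p was 0.0279 with DESeq2, 0.0205 with the replicate block, 0.105 on spike-in scaling, 0.514 with coding-sequence counts, 0.299 when only the libraries compared were fitted and 0.149 without the activated 3 h triptolide replicate 3.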

How the results depend on the processing

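Of 71 member differences called on exons, DESeq2 kept 70, no filter 69, the replicate block 71, coding-sequence counts 60 and leaving out the 2 shallowest libraries 70. A fit of only the libraries compared kept 57 of 67. Spike-in scaling kept 36 of 44, RLE factors 44 of 44, and library size alone 41 of 44. Among the 205 differences tested on TMM scaling, spike-in scaling added 20 calls, RLE factors 4 and library size alone 8. On spike-in scaling 45 differences called on neither scale changed sign. TMM scaling kept 19 of the 27 calls on transcription inhibitors, and comparisons with untreated cells at 0 h or at the same time, added after seeing the data, kept 27 and 24. No called exon difference was reversed. The introns of Btg2 after 3 h of DRB, called lower on spike-in scaling, stood at 0.26 on TMM-scaled exon library sizes, where direction is relative to the typical gene.

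The number of members called in activated against resting cells at 0 h was 1 on spike-in scaling and 3 on TMM. After 3 h of DRB it was 2 on TMM scaling, and with cycloheximide alone in activated cells 4 on spike-in scaling. Leaving out a replicate number in every group kept 50, 66 and 46 of the 71 calls for numbers 2, 3 and 4. The members called then ranged from 0 to 3 in activated against resting cells at 0 h and from 3 to 4 at 3 h. At 3 h they ranged from 3 to 5 for DRB and 5 to 5 for triptolide in either state. They ranged from 1 to 3 for cycloheximide added to triptolide at 1 h in activated cells, 2 to 2 for cycloheximide alone at 3 h there, 1 to 2 in resting cells and 2 to 3 for the difference without and with triptolide. Among the calls lost without number 2 or 4 were Btg1 and Tob1 in activated against resting cells at 0 h, and Btg1 at 0 h with either transcription inhibitor. Others were Btg1 and Tob2 at 1 h with cycloheximide added to triptolide, and Btg2 and Tob2 in resting cells with cycloheximide alone.

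The replicate block lost no exon call. Over both states it added 9 exon calls, among them the difference between the triptolide losses of Btg2 in the 2 states (1.68, adjusted p = 0.0312), whose numbers did not pair. Within each state it added 18 exon calls, and introns of Tob2 at 3 h of harringtonine in resting cells (1.67, adjusted p = 0.0156), of Tob1 at 1 h of DRB (-1.78, adjusted p = 0.0351) and of Btg3 and Tob1 at 3 h of DRB (-0.85 and -1.55, adjusted p = 0.0363 and 0.0419). Where numbers did not pair the samples it called Btg1 with cycloheximide or harringtonine added to triptolide at 1 h in resting cells (0.81, adjusted p = 0.0313, and 0.75, adjusted p = 0.0496), and Tob1 (0.51) and Tob2 (-0.80) in untreated resting cells at 3 h, and introns of Tob2 at 3 h of triptolide in activated cells (-1.67, adjusted p = 0.017). The depth limits Btg3 most, with a median of 10 exon counts per library.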
